A study of Mus musculus with 36 samples.

Results

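Granzymes and perforin are the killing proteins that cytotoxic lymphocytes store in lytic granules. The account covers 10 genes, namely *Gzma*, *Gzmb*, *Gzmc*, *Gzmd*, *Gzme*, *Gzmf*, *Gzmg*, *Gzmk*, *Prf1* and *Nkg7*, chosen by name among the 24781 genes of the deposited count table, and all 10 were found there. They were followed through all 36 libraries, CD8 T cells first and tumour macrophages beside them.

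Granzymes are serine proteases that are made as inactive precursors, trimmed by cathepsin C and packed into lytic granules on the proteoglycan serglycin. On contact with a target cell the granules fuse with the plasma membrane, perforin (*Prf1*) forms pores, and granzymes enter the target and cleave proteins that start its death. NKG7 is a membrane protein of these granules that takes part in their release, and in tumours the same genes are widely read as signs of CD8 T cell effector function.

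The study asked how B cells, and GABA given to mice that lack them, bear on T cells and macrophages in tumours. Mice of both sexes and 2 to 5 months old (muMt-/- mice C57BL/6J, WT mice C57BL/6J or C57BL/6N per the reporting summary) carried MC38 tumours, a mouse colon adenocarcinoma line, and on day 7 after inoculation 100 cells per mouse and cell type were sorted by flow cytometry. CD8 T cells were sorted as CD45+TCRbeta+CD8+ and macrophages as CD45+CD11b+F4/80high, and each sort gave 1 library in which single RNA molecules were barcoded before amplification, so that each count is 1 molecule. All values are RNA, so that granule protein, its release and killing were not measured.

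For each cell type there were 6 libraries of wild-type (WT) mice, 6 of muMt-/- mice, which carry a disrupted immunoglobulin heavy chain gene and lack mature B cells, and 6 of muMt-/- mice implanted with a pellet that releases GABA (below, GABA-treated mice). The sample labels give the treatment of the WT and of the first muMt-/- group as none, while the paper's methods describe a placebo pellet for them. muMt-/- mice lack B cells throughout life and in every organ, and no WT group with a GABA pellet is among these libraries, so that a GABA difference stands on the muMt-/- background alone. *Ighm*, the disrupted gene, was not analysed, so that the genotype was not checked on it.

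Depth ran from 22896 to 98015 molecules per CD8 T cell library and from 100254 to 304100 per macrophage library. Depth differed between the groups of CD8 T cells, with a median of 42066 molecules in WT, 67122 in muMt-/- and 80283 in GABA-treated mice. Levels are therefore given as normalized molecules, the count divided by DESeq2's size factor within a cell type, and a count of 0 in a CD8 T cell library allowed a level of up to 7.21 in the shallowest WT library. Counting intervals and floors cover counting error alone.

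The sorted cells carried the markers of their labels. All 15 CD8 T cell markers searched were found in every CD8 T cell library, with *Thy1* the most abundant, and 5683 of their molecules lay in the CD8 T cell libraries against 78 in the deeper macrophage libraries. RNA of other cells was present too. All 17 macrophage markers were detected in the CD8 T cell libraries, 2591 molecules in all, with *Ctss* the most abundant at 723. Their summed level was 22.0, 14.4, 35.4, 10.3, 145 and 38.3 in WT libraries 1 to 6. In muMt-/- libraries 1 to 6 it was 494, 68.4, 117, 69.5, 175 and 83.3, and in GABA-treated libraries 1 to 6 it was 263, 164, 247, 34.7, 21.1 and 147. The sums were thus high in muMt-/- library 1 and in several GABA-treated libraries, 5 of the 6 WT libraries stayed below every muMt-/- library, and the part of this RNA in the results below was not tested unless a value is given.

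*Gzmb*, the granzyme that cleaves caspases and their substrates, was the most abundant member. Its level in WT mice ran from 70.8 over a median of 133 to 174 normalized molecules, a mean of 132 ± 35.1 (SD, n = 6). In muMt-/- mice it ran from 87.0 over 136 to 192, a mean of 140 ± 44.6 (SD, n = 6). In GABA-treated mice it ran from 109 over 178 to 214, a mean of 169 ± 37.0 (SD, n = 6). The groups overlapped widely: 5 of 6 GABA-treated libraries lay above the WT median and 3 of them above every WT library, while GABA-treated library 6 lay below the WT median. WT library 3 was lowest of all and GABA-treated library 5 highest, and *Gzmb* was found in each of the 18 libraries, where it ranked 40 of the 13109 genes detected by mean level. Fewer cells of a type and less RNA per cell cannot be told apart in such bulk libraries.

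*Gzma*, a granzyme with trypsin-like activity, had a wider relative spread than *Gzmb*. It ran from 10.3 over a median of 15.01 to 34.0 normalized molecules in WT mice. It ran from 3.03 over 12.7 to 69.1 in muMt-/- mice and from 6.36 over 29.2 to 43.9 in GABA-treated mice. All groups overlapped. The highest muMt-/- value came from library 6 alone, the next being 28.0, and 3 of 6 GABA-treated libraries lay above every WT library while 2 lay below every one. Over the 18 libraries its coefficient of variation was 78.8%, against 27.4% for *Gzmb*.

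*Gzmk*, the other trypsin-like granzyme and a neighbour of *Gzma* in the genome, was barely present. Its 5 molecules in CD8 T cells lay in 3 libraries, all GABA-treated, namely 3 in library 4 and 1 each in libraries 2 and 5. The groups cannot be told apart at such counts, since 0 molecules among the 262840 of the WT libraries allow up to 3.

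**Figure D1:**
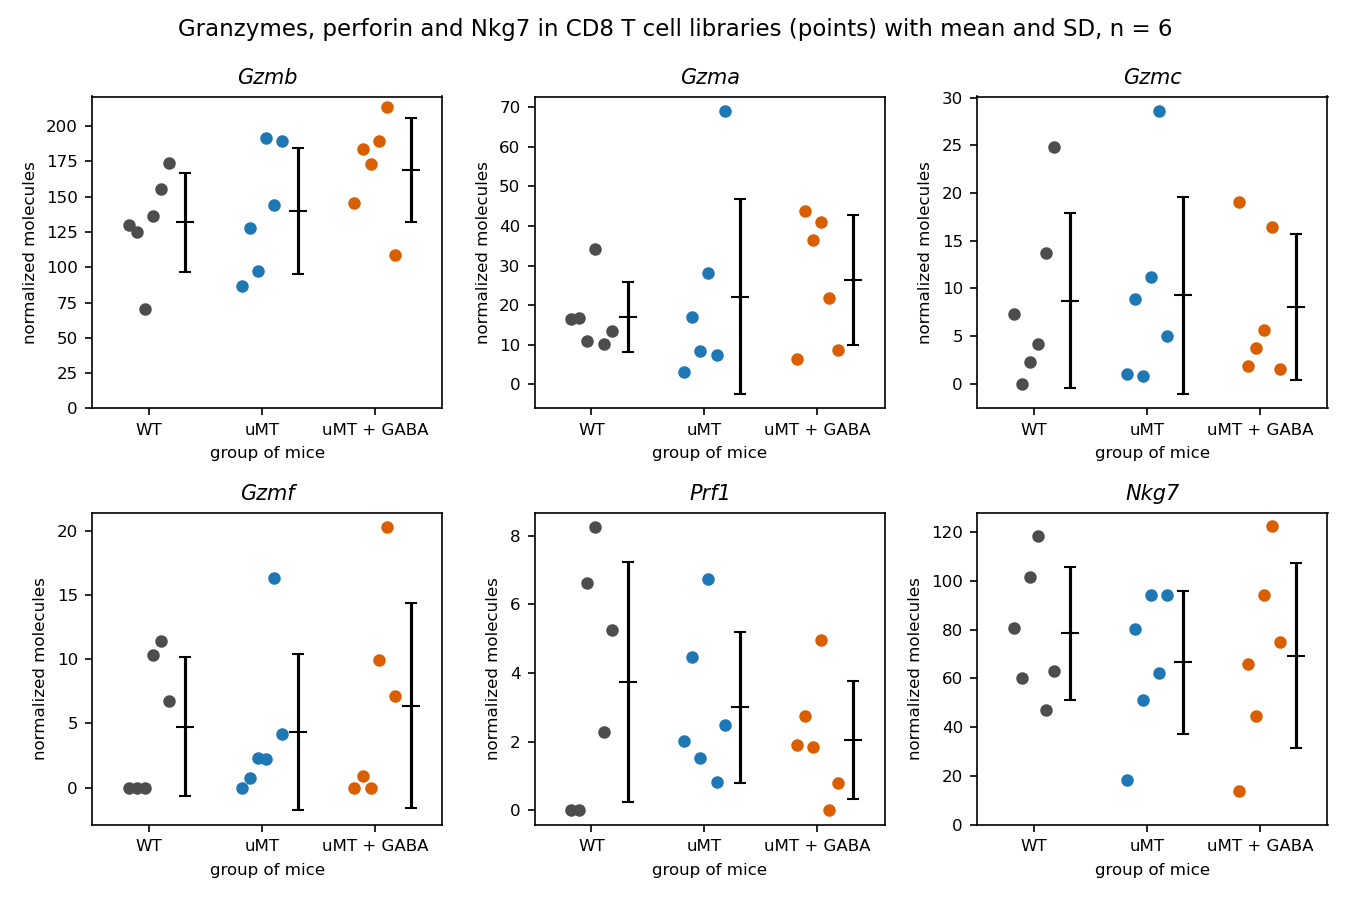
Normalized molecules of *Gzmb*, *Gzma*, *Gzmc*, *Gzmf*, *Prf1* and *Nkg7* in each CD8 T cell library (points), by group of mice, with the mean and SD of 6 libraries beside them. The groups overlap for each gene, and muMt-/- library 6 is the highest for *Gzma* at 69.1.

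*Gzmc*, *Gzmd*, *Gzme*, *Gzmf* and *Gzmg* are granzymes of rodents whose substrates are less well known. *Gzmc* ran from 0 over a median of 5.73 to 24.8 normalized molecules in WT mice. It ran from 0.76 over 6.96 to 28.6 in muMt-/- mice and from 1.58 over 4.65 to 19.1 in GABA-treated mice. Every group thus held libraries near 0 beside a single library above 19, and the groups overlapped throughout. The next highest values were 13.7, 11.2 and 16.4 in WT, muMt-/- and GABA-treated mice. *Gzmf* ran from 0 to 11.4, 16.4 and 20.3 normalized molecules in WT, muMt-/- and GABA-treated mice. *Gzme* reached 9.01 in WT library 6, 5.72 in muMt-/- library 5 and 3.90 in GABA-treated library 5, the only GABA-treated library with a molecule of it.

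The rarer of these genes appeared within the libraries that held the more common ones. *Gzmc* was found in 17 of 18 libraries, *Gzmf* in 12, *Gzme* in 8, *Gzmd* in 3 and *Gzmg* in 2. All 12 libraries with *Gzmf* also held *Gzmc*, all 8 with *Gzme* also held *Gzmf*, all 3 with *Gzmd* also held *Gzme*, and both with *Gzmg* also held *Gzmd*. *Gzmd* was a matter of 1 mouse, since WT library 6 held 11 of its 13 molecules, and muMt-/- libraries 4 and 5 held 1 each. Of the 351 molecules of the 5 genes, 183 (52.1%) came from WT library 6 with 67, muMt-/- library 5 with 64 and GABA-treated library 5 with 52. These libraries belong to different groups, and their depths of 76898, 69271 and 69011 molecules are near the median of 67184 over the 18 libraries. Within WT mice, however, library 6 was the deepest, beside a median of 42066. WT libraries 1, 2 and 3, with 32394, 22896 and 25283 molecules, held 0 of *Gzmd*, *Gzme*, *Gzmf* and *Gzmg*. With *Gzmc* in 17 of 18 libraries, its presence beside *Gzmf* says little. Some of these transcripts also share sequence, as given below. The parts of depth and of shared sequence in this pattern were not tested. GABA-treated library 1 held 30 molecules of *Gzmc* and 0 of the other 4 genes.

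**Figure D2:**
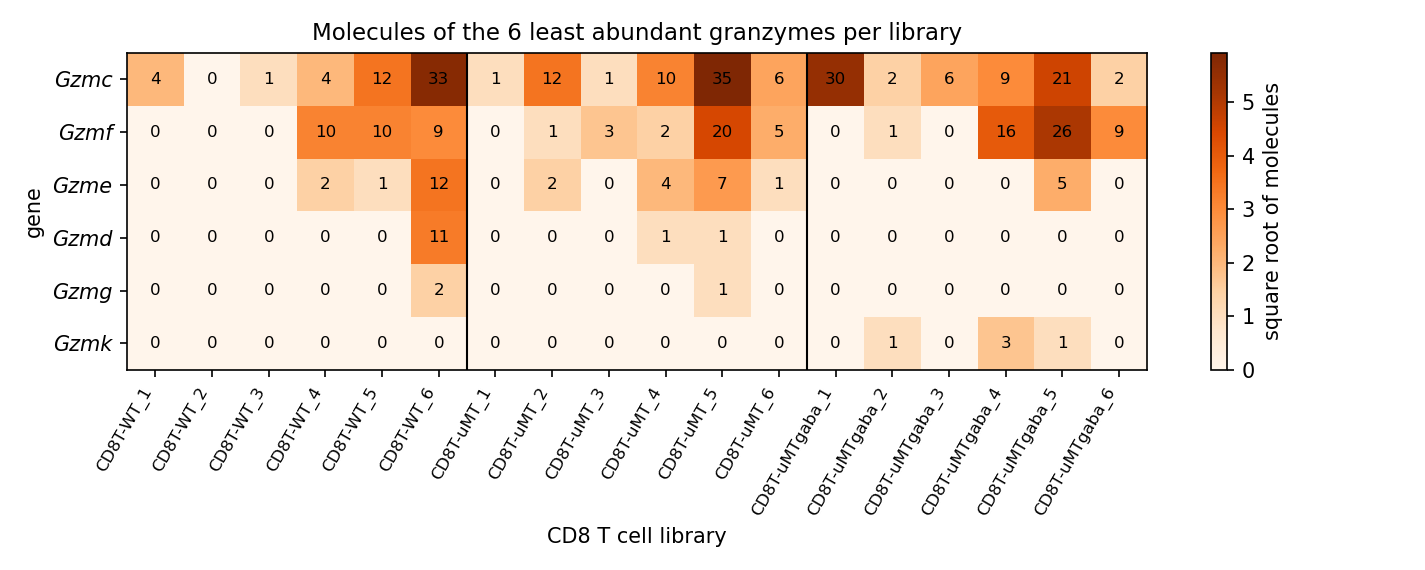
Molecules of *Gzmc*, *Gzmf*, *Gzme*, *Gzmd*, *Gzmg* and *Gzmk* (vertical axis) in each of the 18 CD8 T cell libraries (horizontal axis), with colour by the square root of the count. *Gzme* is seen in libraries that also hold *Gzmf* and *Gzmc*, and WT library 6 holds 11 of the 13 molecules of *Gzmd*.

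Among the 8 granzymes together, *Gzmb* dominated in every mouse. It made up 81.0% ± 6.78 (SD, n = 18) of granzyme molecules, from 70.6% in muMt-/- library 6, where *Gzma* was high, to 95.6% in muMt-/- library 1. Its mean share was 80.7% in WT, 81.4% in muMt-/- and 80.9% in GABA-treated mice. *Gzma* followed with 11.1% ± 6.28 (SD, n = 18) and *Gzmc* with 4.36% ± 4.06 (SD, n = 18). Granzyme molecules made up 0.150% to 0.412% of all molecules in WT libraries, 0.142% to 0.497% in muMt-/- and 0.227% to 0.514% in GABA-treated libraries, with medians of 0.292%, 0.316% and 0.374%.

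*Prf1*, which encodes the pore former, gave few molecules, 20 in WT, 20 in muMt-/- and 18 in GABA-treated mice. Its level ran from 0 over a median of 3.77 to 8.25 normalized molecules in WT mice. It ran from 0.82 over 2.26 to 6.73 in muMt-/- mice and from 0 over 1.88 to 4.96 in GABA-treated mice. WT libraries 1 and 2 and GABA-treated library 5 held none, and in GABA-treated library 5 this stood beside the highest *Gzmb* level of all libraries. With 58 molecules over 18 libraries, a difference between groups in *Prf1* was mostly not detectable at this depth.

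*Nkg7* was the second most abundant member. It ran from 46.9 over a median of 71.9 to 119 normalized molecules in WT mice. It ran from 18.2 over 71.2 to 94.2 in muMt-/- mice and from 13.98 over 70.4 to 123 in GABA-treated mice. The medians lay close together, and the lowest values belonged to muMt-/- library 1 and GABA-treated library 1, which also had the highest shares of macrophage marker molecules, 0.768% and 0.422%.

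*Nkg7* varied with the amount of T cell RNA in a library, and *Gzmb* did so less. Over the 18 CD8 T cell libraries the Spearman correlation with the summed level of the 15 CD8 T cell markers was 0.92 for *Nkg7*, 0.59 for *Gzma* and 0.31 for *Gzmb*. With the summed macrophage markers it was −0.73 for *Nkg7*, −0.41 for *Gzma* and −0.09 for *Gzmb*. The points share library, depth and scaling, and the values are descriptions. Counted per 100 molecules of the T cell markers, *Nkg7* varied by 24.0% (coefficient of variation) instead of 42.5% per normalized molecule, and its group medians were 23.6, 25.2 and 24.97 in WT, muMt-/- and GABA-treated mice. *Gzmb* counted in the same way varied by 33.9%, and its medians were 37.9, 53.6 and 63.4 per 100 marker molecules. WT library 3 had the lowest such number for *Gzmb*, 21.6, and GABA-treated library 1 the highest, 91.6, while that library had the lowest for *Nkg7*, 8.80. With these markers as the scale of the fit, the typical gene rose against WT mice too. The median log2 fold change of all genes was 0.30 in muMt-/- and 0.28 in GABA-treated mice. Relative to these medians *Gzmb* had −0.07 and 0.26.

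**Figure D3:**
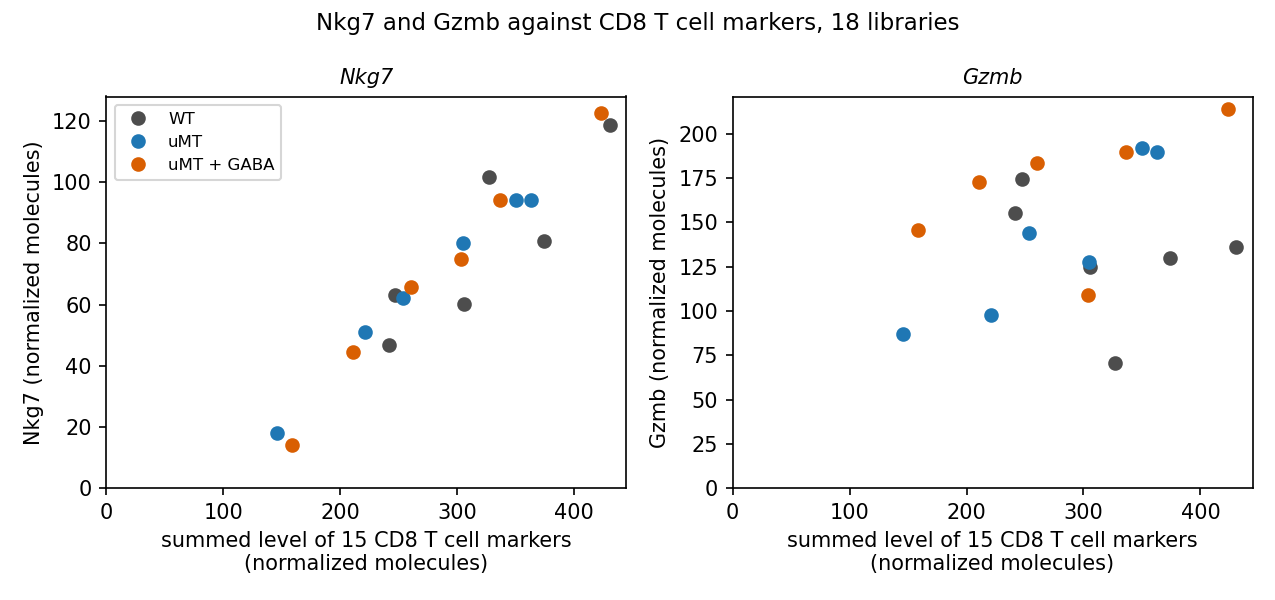
Normalized molecules of *Nkg7* (left) and *Gzmb* (right) against the summed normalized level of 15 CD8 T cell markers in 18 CD8 T cell libraries, 1 point a library, coloured by group. *Nkg7* follows the sum (Spearman correlation 0.92), and *Gzmb* follows it less (0.31).

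Per kb of transcript, the mean levels over 18 libraries came in the order *Gzmb*, *Nkg7*, *Gzma*, *Gzmc*, *Gzmf*, *Gzme*, *Prf1*, *Gzmd*, *Gzmk* and *Gzmg*. *Gzmb* stood at 102 ± 28.0 normalized molecules per kb, *Nkg7* at 81.2 ± 34.5 and *Gzma* at 24.9 ± 19.6 (SD, n = 18). Only 1 of the 9 steps in this order was larger than the larger SD of its neighbours, the step from *Nkg7* to *Gzma*. Counted per molecule without the length, *Prf1* came before *Gzme* and the rest of the order was as above. *Prf1* had a mean of 1.18 per kb, so that RNA of the pore former was far scarcer per length than that of *Gzmb*.

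Levels of members varied together in part over the 18 CD8 T cell libraries. The Spearman correlation was 0.71 for *Gzmc* and *Gzme*, 0.63 for *Gzme* and *Gzmf*, 0.63 for *Gzma* and *Gzmb*, and 0.54 for *Gzmb* and *Gzmc*. *Gzma* and *Gzmc*, in contrast, stood at −0.07, and *Prf1* and *Gzmb* at 0.17. As deviations from the group means the pair *Gzmc* and *Gzme* gave 0.73, *Gzma* and *Gzmb* 0.59, *Gzmb* and *Gzmc* 0.56, and *Gzme* and *Gzmf* 0.46, the last being lower than over all libraries. Low counts limit these numbers, and they are descriptions.

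Whether loss of B cells changes the members in CD8 T cells was asked by muMt-/- against WT mice. For 7 of the 10 members the mean passed the filter of 1 normalized molecule, and *Gzmd*, *Gzmg* and *Gzmk* were not tested. By edgeR's quasi-likelihood test 0 of the 7 had an adjusted p under 0.05, as had 0% of the 6663 genes tested. At an unadjusted p under 0.05 there were 0 of the 7 and 6.17% of all genes, and DESeq2's Wald test gave 0 of the 7 with adjusted and 0 with unadjusted p. With edgeR's scaling (TMM) the typical gene did not stand at 0, since the median over all genes was 0.15 here and 0.21 for GABA-treated against WT mice. The same medians were 0.06 and 0.06 under size factors of DESeq2, and single values carry this shift. *Gzmb* had a log2 fold change of 0.18 (95% interval −0.27 to 0.63, adjusted p = 0.960), which is 0.02 above the median of all genes and 0.07 below it (−0.07) when T cell markers set the scale, and 3 of 6 muMt-/- libraries lay above the WT median. With single libraries left out it ran from 0.03 to 0.30. *Gzma* had 0.48 (−0.54 to 1.49), which turned to −0.36 without muMt-/- library 6. *Prf1* had −0.43 (−1.67 to 0.80), from −0.78 without muMt-/- library 4 to −0.03 without WT library 4. *Nkg7* had −0.09 (−0.78 to 0.59), or 0.05 without muMt-/- library 1 and GABA-treated library 1. *Gzmc* had −0.08 (−1.33 to 1.17), which became 0.65 without WT library 6 and 0.03 by DESeq2, and *Gzme* had −0.45 (−2.21 to 1.31), which became 1.16 without WT library 6. Single mice thus decide the sign for *Gzma*, *Gzmc* and *Gzme*, and also for *Nkg7*, which ran from −0.24 to 0.11 with single libraries left out. *Gzmf* had −0.33 (−1.98 to 1.33), which ran from −1.495 without muMt-/- library 5 to −0.03 without WT library 5. For 5 of the 7 genes, all but *Gzmb* and *Nkg7*, the interval reached more than 1 to either side of the value, so that smaller changes were not detectable.

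Whether GABA changes the members in mice without B cells was asked by GABA-treated against the other muMt-/- mice, which serve as the control here and as the test group above. Of the 7 members tested 0 had an adjusted p under 0.05 by edgeR, beside 0% of the 6663 genes. At an unadjusted p under 0.05 there were 0 of the 7 and 3.71% of all genes, and DESeq2 gave 0 of the 7 with adjusted and 0 with unadjusted p. *Gzmb* was higher in GABA-treated mice by a log2 fold change of 0.32 (95% interval −0.11 to 0.76, adjusted p = 0.999), with 5 of 6 libraries above the muMt-/- median and a positive value under each scaling. The ranges overlapped, no threshold was passed, and the value ran from 0.20 to 0.45 with single libraries left out. *Gzma* had 0.27 (−0.65 to 1.19), which became 1.12 without muMt-/- library 6, and *Gzmf* had 0.56 (−0.92 to 2.05), which became −0.23 without GABA-treated library 5. *Gzme* had −1.54 (−3.82 to 0.73), which ran from −4.25 without GABA-treated library 5, the only one with its molecules, to −0.86 without muMt-/- library 5. *Prf1* had −0.39 (−1.64 to 0.86), from −0.92 without GABA-treated library 4 to −0.11 without muMt-/- library 4. *Gzmc* had −0.15 (−1.33 to 1.03) and *Nkg7* 0.11 (−0.56 to 0.79). Relative to the median of all genes *Nkg7* had 0.08, or 0.004 with T cell markers as the scale. The value of *Gzmc* reached 0.67 and −0.61 when single libraries were left out, and −0.83 at the lowest of the other alternatives.

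GABA-treated mice set against WT mice share both groups with the comparisons above. Of the 7 members tested 0 had an adjusted p under 0.05 by edgeR, beside 0% of the 6663 genes, and DESeq2 gave 0 with adjusted and 0 with unadjusted p. At an unadjusted p under 0.05 edgeR gave 2 of the 7, *Gzmb* and *Gzme*, beside 6.89% of all genes. *Gzmb* had a log2 fold change of 0.50 (95% interval 0.06 to 0.95, adjusted p = 0.626), or 0.29 (−0.15 to 0.74) relative to the median of all genes, an interval that includes 0, and without WT library 3, the lowest, the log2 fold change was 0.35. *Gzme* had −1.995 (−4.28 to 0.29, adjusted p = 0.705), which became −0.41 without WT library 6 and −4.70 without GABA-treated library 5, so that these libraries decide its size. *Gzma* had 0.75 (−0.25 to 1.74), which ran from 0.50 to 1.15 with single libraries left out. *Prf1* had −0.83 (−2.09 to 0.44; −1.40 without GABA-treated library 4, −0.42 without WT library 4) and *Gzmc* −0.23 (−1.48 to 1.01), the last 0.48 without WT library 6. *Gzmf* had 0.24 (−1.30 to 1.78), which became −0.56 without GABA-treated library 5, and which relative to the median of all genes was 0.03, or −0.24 with T cell markers as the scale. *Nkg7* had 0.02 (−0.66 to 0.70), and −0.18 with DESeq2's size factors, or −0.19 and −0.24 relative to the median of all genes. With no filter on low levels 1 of the 10 members, *Gzmd*, passed, which WT library 6 decides since the other WT libraries held 0 of its molecules. Other genes, such as *Ifng*, passed in that fit too. Its share of all genes is not given, so that this count is no result about the members.

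Macrophages held almost no RNA of these genes. All 18 macrophage libraries together gave 58 molecules of the 10 members among 3663618, against 5305 among 1154683 in CD8 T cells, and 8 of the 18 macrophage libraries gave 0. GABA-treated macrophage library 6 alone held 20 of the 58, among them 7 of *Nkg7*, 6 of *Gzmb* and 6 of *Gzma*, and library 4 held 8. In these libraries 6 and 4 of the 15 CD8 T cell markers were found, with 8 and 6 molecules, a sum of 6.65 and 5.49 normalized molecules, where the group median was 1.69. In WT macrophages, whose libraries held at most 6 member molecules, the median of this sum was 5.20 and the highest 9.47. All these sums rest on few molecules. The NK cell markers *Ncr1* and *Klra8* were at 0 in all 36 libraries, and *Klra4* was the most abundant of 6 NK cell and ILC1 markers in macrophages with 15 molecules, while library 6 held 8 molecules of the list. The part of T cell or NK cell RNA in these molecules was not tested.

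Per 1000000 molecules, *Gzmb* stood at 2492 in CD8 T cells and 6.81 in macrophages of WT mice, a ratio of 366 (95% exact counting interval 198 to 767). The ratio was 392 (179 to 1070.3) in muMt-/- and 441 (223 to 1024) in GABA-treated mice, and in each group the lowest CD8 T cell library lay above the highest macrophage library. Single macrophage libraries decide the size of these ratios, which were 725 without WT library 5, 2004 without muMt-/- library 4, which held 5 of 6 macrophage molecules, and 1436 without GABA-treated library 6, which held 6 of 8. *Nkg7* had a ratio of 661 (224 to 3221) in WT and 108 (62.9 to 205) in GABA-treated mice, the latter 191 without macrophage library 6 and 168 without library 4, and with 0 molecules in macrophages of muMt-/- mice it was at least 380-fold higher in CD8 T cells, counting 3 molecules over the group as the floor. For *Gzmb*, *Nkg7* and *Gzma* the CD8 T cell and macrophage libraries thus did not overlap. The share of all genes without such overlap is not given, so that this is a description of these genes alone. *Gzma* was at least 151-fold higher in WT mice on the same floor, and its ratio was 188 (51.3 to 1569) in muMt-/- and 61.0 (31.6 to 135) in GABA-treated mice. Without single libraries it ran from 104 to 297 in muMt-/- mice and from 47.8 to 149 in GABA-treated mice. *Gzmc* gave 302 (51.9 to 12133) and 159 (27.6 to 6376) in WT and muMt-/- mice, each against 1 macrophage molecule, and was at least 57.7-fold higher in GABA-treated mice. The wide interval of *Gzmc* comes from these single molecules, and its ratio was 166 without WT CD8 T cell library 6 and 88.6 without muMt-/- CD8 T cell library 5. *Prf1* was at least 37.2-fold and at least 16.3-fold higher in WT and muMt-/- mice, and its ratio was 22.3 (5.33 to 198) in GABA-treated mice, from 15.2 to 38.9 without single libraries. *Gzmf* gave 81.0 (20.5 to 701) in WT mice and was at least 25.3-fold and 42.9-fold higher in the other groups, or 10.8-fold without muMt-/- library 5 and 24.97-fold without GABA-treated library 5. Its WT ratio was 136 without macrophage library 3 and 134 without macrophage library 4. Some CD8 T cell libraries held 0 molecules of *Prf1* or *Gzmf*, so that the ranges of single libraries overlapped, except for *Prf1* in muMt-/- mice, and those of *Gzmc* overlapped in WT mice. *Gzme* was at least 27.9-fold, 11.4-fold and 4.12-fold higher in WT, muMt-/- and GABA-treated mice, *Gzmd* at least 20.5-fold higher in WT mice through WT library 6 alone, without which no bound can be given, and *Gzmk* at least 4.12-fold higher in GABA-treated mice. The muMt-/- bound of *Gzme* was 6.89-fold without CD8 T cell library 5. All these bounds take the CD8 T cell count as it stands. For the 5 molecules of *Gzme* and the 5 of *Gzmk* in GABA-treated mice, the 95% counting interval began at 3.33 per 1000000. That of 0 macrophage molecules ended at 3.05. No bound is left for *Gzme* without WT library 6, which held 12 of 15 WT molecules, or without GABA-treated library 5, nor for *Gzmk* without GABA-treated library 4, which held 3 of its 5. In WT mice *Gzmk* had 0 molecules in CD8 T cells and 1 in macrophages. *Gzmg*, with 3 molecules in all, allows no ratio.

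In 1 fit of all 36 libraries 7 members passed the filter, through their levels in CD8 T cells, so that their counts are given for completeness and support nothing further. Between the cell types of WT mice 7 had an adjusted p under 0.05, beside 22.7% of 8477 genes. In muMt-/- mice there were 7, beside 21.4%, and in GABA-treated mice 6, beside 22%, the exception being *Gzme*. DESeq2 gave 6 in each, for which the share of all genes is not given. Under alternatives other than single libraries left out, the counts ran from 5 to 8 in WT and in GABA-treated mice. In muMt-/- mice they ran from 5 to 7. The share of all genes is not given for these ranges, so that they are no result about the members. *Gzmb* had log2 fold changes of 7.91 (95% interval 6.61 to 9.21), 8.19 (6.58 to 9.80) and 8.46 (7.04 to 9.87) in the 3 groups of mice.

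Within macrophages *Gzmb* was the only member to pass the filter, and *Gzma*, *Gzmc*, *Gzmd*, *Gzme*, *Gzmf*, *Gzmg*, *Gzmk*, *Prf1* and *Nkg7* did not. It was not called between muMt-/- and WT mice, 0 of 1 beside 2.05% of 9469 genes, nor between GABA-treated and muMt-/- mice, 0 of 1 beside 0.0211%, nor between GABA-treated and WT mice, 0 of 1 beside 0.0739%. edgeR gave it an unadjusted p under 0.05 in 0 of the 3 comparisons, and so did DESeq2. Whether the effect of B cell loss differs between the cell types was asked by an interaction in the fit of 36 libraries. There 0 of 7 members passed beside 0.0118% of genes, 0 at an unadjusted p under 0.05 beside 10.1%, and 0 by DESeq2. The 7 passed the filter through CD8 T cells and had few or 0 molecules in macrophages. Their counts, for B cell loss and for GABA, therefore cannot answer this question and are given for completeness. For the effect of GABA 0 of 7 passed beside 0% of genes, and *Nkg7* alone had an unadjusted p under 0.05 by edgeR (adjusted p = 0.994), where 4.53% of all genes had, and by DESeq2, with macrophages of muMt-/- mice at 0 molecules.

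Of 66 other genes of the pathway in 6 lists, 60 were tested in CD8 T cells. By edgeR 0 had an adjusted p under 0.05 in the 3 comparisons, where 0% of all genes had. At an unadjusted p under 0.05 there were 7 higher and 2 lower in muMt-/- against WT mice, beside 6.17% of all genes, 3 higher and 1 lower with GABA, beside 3.71%, and 5 higher and 1 lower between GABA-treated and WT mice, beside 6.89%. The other granzymes, *Gzmm* and *Gzmn*, gave 14 and 3 molecules in CD8 T cells, 0 in macrophages, and were not tested.

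Genes that process, store or block granzymes were all 11 tested, and their median log2 fold change between muMt-/- and WT mice was 0.46 beside 0.15 for all genes, with 7 of the 11 higher where 62.3% of all genes were. With GABA it was 0.03 beside 0.03, and between GABA-treated and WT mice 0.26 beside 0.21. *Srgn*, which encodes serglycin, ran from 69.7 over 75.9 to 88.7 normalized molecules in WT, 63.3 over 81.9 to 142 in muMt-/- and 65.1 over 84.6 to 120 in GABA-treated mice. *Serpinb9*, an inhibitor of granzyme B that shields killer cells, had medians of 25.1, 23.9 and 24.9, and *Serpinb6b*, a related inhibitor, 37.2, 30.2 and 30.7. *Ctsc*, which encodes the cathepsin that activates granzymes, had medians of 6.07, 16.8 and 27.9. Between muMt-/- and WT mice it had a log2 fold change of 1.45 (adjusted p = 0.630). With no filter, where the share of all genes passing is not given, it passed (adjusted p = 0.000143). Its Spearman correlation with the summed macrophage markers was 0.94 over the 18 libraries, its mean level was 623 in macrophages, and without the 2 libraries with most macrophage marker RNA the log2 fold change was 0.65. With single libraries left out it ran from 0.72 to 2.54. *Serpina3g*, an inhibitor of cathepsins, had −1.004 in that comparison, with medians of 7.73, 3.39 and 6.78 in the 3 groups.

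Genes of lytic granule traffic and release gave 14 tested of 15, with a median log2 fold change of 0.10 between muMt-/- and WT mice beside 0.15 for all genes, 0.04 with GABA beside 0.03, and 0.15 between GABA-treated and WT mice beside 0.21. *Coro1a*, an actin regulator, was the most abundant with medians of 58.7, 52.0 and 57.7 normalized molecules. *Lamp1*, whose protein comes to the surface when granules are released, had medians of 6.07, 14.2 and 11.9, and *Rab7* 11.54, 10.5 and 9.66. *Lamp2* had a log2 fold change of 1.33 between muMt-/- and WT mice, and 0.76 without the 2 libraries with most macrophage marker RNA. The Spearman correlation with the summed macrophage markers was 0.90 for *Lamp1* and 0.62 for *Lamp2*. *Rab27a*, needed for docking of granules, had −0.05 between muMt-/- and WT mice and medians of 6.75, 6.69 and 5.21. Relative to the median of all genes it had −0.21, or −0.27 with T cell markers as the scale.

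Death ligands and cytokines of cytotoxic cells were all 11 tested, with a median log2 fold change of 0.03 between muMt-/- and WT mice beside 0.15 for all genes, 0.24 with GABA beside 0.03, and 0.34 between GABA-treated and WT mice beside 0.21. *Ifng*, the gene of interferon gamma, ran from 101 over 262 to 326 normalized molecules in WT mice. It ran from 107 over 202 to 362 in muMt-/- mice and from 183 over 398 to 754 in GABA-treated mice. The GABA-treated median thus lay above every muMt-/- library, though the ranges overlapped. Its log2 fold change with GABA was 1.02 (95% interval 0.47 to 1.57, adjusted p = 0.999) and against WT mice 0.97 (0.42 to 1.52, adjusted p = 0.458). It did not pass by edgeR with the filter or by DESeq2 with adjusted p. With no filter it passed in both comparisons, but the share of all genes passing there is not given. *Ccl5*, a chemokine stored in T cells, had medians of 83.8, 44.2 and 94.3 and log2 fold changes of −0.77 between muMt-/- and WT mice and 1.21 with GABA (0.48 to 1.94, adjusted p = 0.999). With GABA it passed with no filter and with the replicate number as a block, for which the shares of all genes are not given. DESeq2 gave it and both results of *Ifng* an unadjusted p under 0.05. *Ccl3* had medians of 113, 115 and 142 and *Ccl4* of 218, 171 and 174, and *Il2* had a log2 fold change of 0.88 between muMt-/- and WT mice.

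Receptors of cytotoxic lymphocytes gave 10 tested of 13, with a median log2 fold change of 0.20 between muMt-/- and WT mice beside 0.15 for all genes, −0.23 with GABA beside 0.03, and 0.01 between GABA-treated and WT mice beside 0.21. *Klrc1* and *Klrd1*, which encode the NKG2A and CD94 chains, had medians of 33.9, 37.7 and 23.1 and of 23.9, 22.6 and 15.8 normalized molecules. Their Spearman correlation over the 18 libraries was 0.78 and 0.70 with the summed T cell markers and −0.75 and −0.60 with the summed macrophage markers. *Il2ra* and *Il2rb*, chains of the interleukin-2 receptor, had log2 fold changes of 0.45 and −0.50 between muMt-/- and WT mice. All 14 transcription factors of cytotoxic T cells were tested, with a median of −0.01 between muMt-/- and WT mice beside 0.15, 0.09 with GABA beside 0.03, and 0.20 between GABA-treated and WT mice beside 0.21. *Id2*, *Bhlhe40* and *Hopx* were the most abundant, with medians of 32.3, 37.5 and 34.9, of 12.4, 21.1 and 17.2 and of 11.4, 10.9 and 16.1. *Zeb2*, a factor of terminal effector cells and of macrophages, had a log2 fold change of 0.82 and *Tcf7*, a factor of memory and stem-like cells, −0.32 between muMt-/- and WT mice. The value of *Tcf7* ran from −0.53 to −0.02 with single libraries left out. Without the 2 libraries with most macrophage marker RNA *Zeb2* had 0.34.

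In macrophages 45 of the 66 genes were tested. Between muMt-/- and WT mice 3 rose and 0 fell at an adjusted p under 0.05, beside 2.05% of all genes, and in the other comparisons 0 passed by edgeR, beside 0.0211% and 0.0739%. At an unadjusted p under 0.05 there were 11 higher and 4 lower between muMt-/- and WT mice (14.9% of all genes), 1 higher and 7 lower with GABA (8.46%), and 5 higher and 1 lower between GABA-treated and WT mice (7.02%). *Bhlhe40* rose by a log2 fold change of 1.19 (95% interval 0.68 to 1.71, adjusted p = 0.00597), from a median of 6.96 to 16.6 normalized molecules, and *Zeb2* by 1.09 (0.66 to 1.52, adjusted p = 0.00349), from 60.7 to 115. *Lyst*, a regulator of lysosome-related organelles, rose by 1.96 (1.02 to 2.89, adjusted p = 0.00828), and without muMt-/- macrophage library 4 it had 1.57 and an adjusted p of 0.0732. All 6 muMt-/- libraries lay above all 6 WT libraries for each of these genes, where the share of all genes is not given. The genes were named because they passed in this comparison, so that this separation adds no support. None of them is a granzyme gene, and all are expressed outside cytotoxic cells.

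Markers of other cells were sought in the CD8 T cell libraries as well. Of 6 NK cell and ILC1 markers 4 were found, 24 molecules with *Klra7* most abundant, and the summed level reached 5.4996, 1.67 and 2.54 normalized molecules in WT, muMt-/- and GABA-treated mice. Of 3 CD4 T cell markers all were found, 25 molecules with *Cd40lg* most abundant. Of 7 mast cell markers 1 was found, 26 molecules of *Kit*, with *Cpa3*, *Mcpt4*, *Tpsb2*, *Cma1*, *Fcer1a* and *Ms4a2* at 0. All 4 plasmacytoid dendritic cell markers gave 100 molecules, most of *Tcf4*, and 4 of 5 neutrophil markers gave 82, with *S100a8* the most abundant and *Retnlg* at 0. Of 7 tumour and stroma markers 4 were found, 426 molecules with *Col3a1* most abundant and *Krt8*, *Krt18* and *Krt19* at 0. The part of these cells in the members' levels was not tested.

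The members lie in 4 places of the genome (GRCm38.p6, from RefSeq). *Gzme*, *Gzmd*, *Gzmg*, *Gzmf*, *Gzmc* and *Gzmb* stand in this order on chromosome 14 from 56117619 to 56262334, within 145 kb and all on the minus strand, and *Gzmn* lies among them. *Gzma* and *Gzmk* lie within 87.1 kb of chromosome 13, from 113093824 to 113180965 on the minus strand. *Prf1* lies on chromosome 10 from 61297751 to 61304684 and *Nkg7* on chromosome 7 from 43437138 to 43438246, both on the plus strand. Along chromosome 14 the mean level per kb was 1.74 for *Gzme*, 0.588 for *Gzmd*, 0.142 for *Gzmg*, 5.59 for *Gzmf*, 9.69 for *Gzmc* and 102 for *Gzmb*, so that the 3 genes nearest to the *Gzmb* end had the highest levels.

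**Figure D4:**
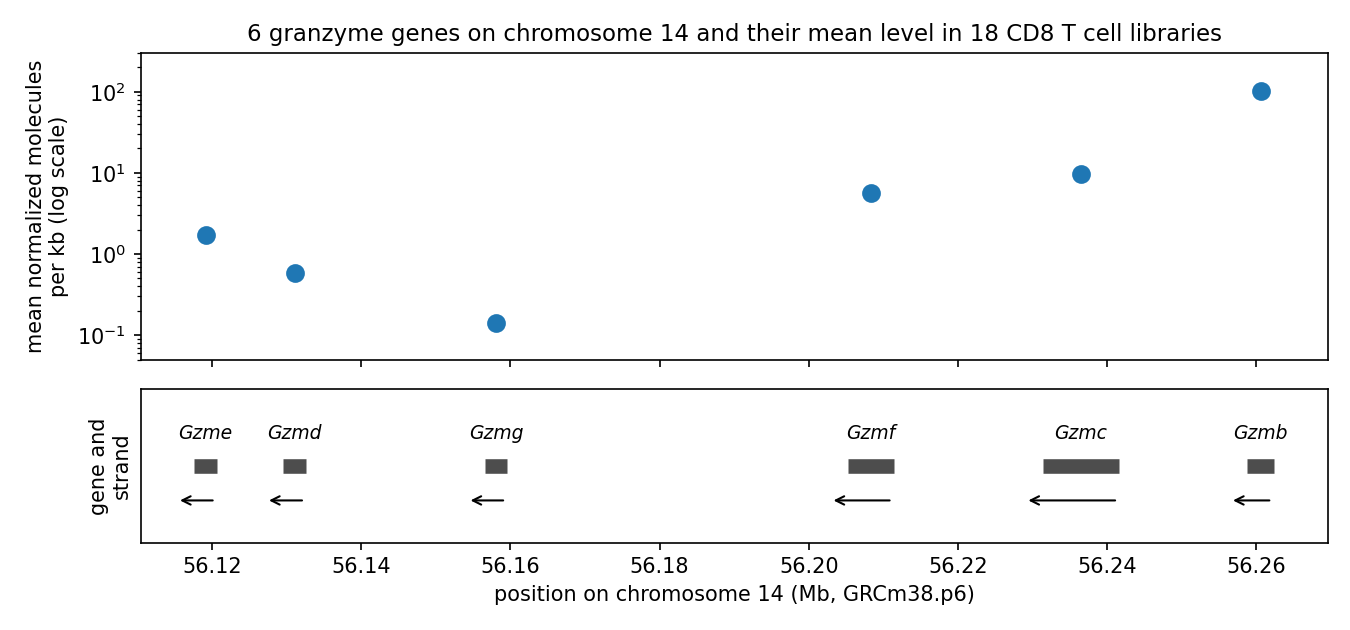
Mean normalized molecules per kb over 18 CD8 T cell libraries (log scale, points) of the 6 granzyme genes of chromosome 14, above a map of the genes (boxes) with their direction of transcription (arrows) in Mb of GRCm38.p6. The level is highest for *Gzmb* at 102 and lowest for *Gzmg* at 0.142.

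Some of these transcripts share sequence, which limits how well their molecules can be assigned. Of all stretches of 50 bases in its transcript, *Gzmd* shared 21.9% with transcripts of other genes, *Gzme* 20.6%, *Gzmg* 19.8%, *Gzmf* 7.36% and *Gzmc* 4.14%. *Gzma*, *Gzmb*, *Gzmk*, *Prf1* and *Nkg7* shared 0%. *Gzmd* and *Gzme* shared 110 stretches with each other. How reads that match several genes were counted is not stated, so that the low counts of *Gzmd*, *Gzme*, *Gzmf* and *Gzmg* are uncertain in this respect.

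The bases before the annotated start of transcription are shown for *Gzmb*, *Gzmc*, *Gzmf* and *Gzme*, since *Gzme* varied with *Gzmc* (0.71) and with *Gzmf* (0.63) over the libraries and *Gzmb* is the most abundant gene of the cluster. *Gzmc* and *Gzmf* varied together less (0.43), about as *Gzmb* and *Gzmf* did (0.44). All 10 members were matched in the promoter table of RefSeq (GRCm38.p6), and the 250 bases before the start were searched on both strands for TGTGGT, the core bound by RUNX factors, TGANTCA, bound by AP-1, TGACGTCA, the cyclic AMP response element, and AGGTGTGA, bound by T-box factors, which contains the shorter T-box core GGTGTG. The capitals mark matches on either strand, and each window lies on the minus strand, at chr14:56262335-56262584 for *Gzmb*, chr14:56234658-56234907 for *Gzmc*, chr14:56211408-56211657 for *Gzmf* and chr14:56120626-56120875 for *Gzme*. The starts used for *Gzmc*, and among the windows not shown for *Prf1* and *Gzmd*, lie inside their RefSeq loci. By GENCODE 10 bases of the *Gzmf* window are transcribed, as are 65 of *Nkg7*, 15 of *Gzmd* and 3 of *Prf1* among the windows searched.
Gzmb: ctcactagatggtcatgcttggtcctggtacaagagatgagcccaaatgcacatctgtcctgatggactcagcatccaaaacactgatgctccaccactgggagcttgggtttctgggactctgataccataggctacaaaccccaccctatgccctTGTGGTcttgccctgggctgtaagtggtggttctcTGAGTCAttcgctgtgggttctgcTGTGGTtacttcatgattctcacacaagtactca
Gzmc: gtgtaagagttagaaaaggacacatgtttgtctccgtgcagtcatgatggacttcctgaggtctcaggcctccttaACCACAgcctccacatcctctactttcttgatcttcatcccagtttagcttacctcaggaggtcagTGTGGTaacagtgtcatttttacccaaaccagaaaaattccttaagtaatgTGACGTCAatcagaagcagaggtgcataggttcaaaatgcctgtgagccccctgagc
Gzmf: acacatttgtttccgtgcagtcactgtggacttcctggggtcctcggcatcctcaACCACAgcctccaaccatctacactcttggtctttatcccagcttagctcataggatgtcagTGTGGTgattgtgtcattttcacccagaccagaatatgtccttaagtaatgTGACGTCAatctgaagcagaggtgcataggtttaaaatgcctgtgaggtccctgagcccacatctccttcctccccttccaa
Gzme: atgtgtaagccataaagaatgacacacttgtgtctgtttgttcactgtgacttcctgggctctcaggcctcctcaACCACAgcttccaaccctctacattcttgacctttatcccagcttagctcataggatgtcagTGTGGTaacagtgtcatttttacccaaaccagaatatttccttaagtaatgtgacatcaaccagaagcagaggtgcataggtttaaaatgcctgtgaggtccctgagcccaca

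TGTGGT was found before 9 of the 10 members, *Gzmk* being the exception, and before 14.05% of 32851 promoters. TGANTCA was found before *Gzmb* alone and before 6.75% of all promoters. TGACGTCA was found before *Gzmc*, *Gzmf* and *Gzmg* and before 1.55% of all, AGGTGTGA before *Nkg7* and 1.12% of all, and GGTGTG before *Nkg7* and *Gzmk* and 16.3% of all. The windows of *Gzmc*, *Gzmd*, *Gzme*, *Gzmf* and *Gzmg* were alike, with 83.3% to 95.2% identical bases over 230 to 251 aligned positions in 10 pairs, so that their shared letters are not independent of each other. A match is a description and not a binding site.

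The genes whose levels were most like those of a member over the 18 CD8 T cell libraries were sought among 1878 genes with a mean of at least 5 normalized molecules. For *Gzmb* they were a gene named 1-Sep in the file, a name changed to a date, *Ccl3*, *Ube2m*, *Ccng1* and *Agfg1*, with Spearman correlations of 0.70, 0.70, 0.69, 0.68 and 0.67. For *Gzmc* they were *Ctdnep1*, *Mcm5*, *Myl12a*, *Pcna* and *Strap*, with 0.79, 0.77, 0.77, 0.69 and 0.69. For *Prf1* they were *BC031181*, *Pbxip1*, *Csnk2b*, *Stmn1* and *Wipf1*, with 0.78, 0.78, 0.70, 0.69 and 0.69. *Ccl3* encodes a chemokine, and *Mcm5* and *Pcna* act in DNA replication. *Gzmk*, with 5 molecules, gave *Krtcap2*, *Naca*, *Tomm6*, *Gm15421* and *Got2* at 0.60 to 0.56, which at such counts is no finding. Over all 1878 genes the 95th percentile of the correlation was 0.43 for *Gzmb*, 0.42 for *Gzmc* and 0.39 for *Prf1*. Each list holds the 5 highest of many genes, so that its values are descriptions. The libraries share depth and RNA of other cells.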

How the data were processed

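The authors sorted 100 cells per library, barcoded RNA molecules during reverse transcription, mapped reads with STAR to mm10 (per labels and paper) and deposited counts of distinct molecules per gene and library without normalization. The members and gene lists were chosen with earlier results of these data known. Here counts of 36 libraries (6 groups of 6, from the labels) were tested with edgeR 4.0.16 (quasi-likelihood F-test, two-sided, TMM, 1 coefficient per group) in R 4.3.3, with 18 libraries of a cell type per fit or all 36. Genes with a mean DESeq2-normalized number above 1 were tested, with Benjamini-Hochberg adjustment over all of them and a threshold of 0.05. Intervals of log2 fold changes are 95% Wald intervals from the fit. The procedure was tested on simulated data.

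Named genes are the members, and of each pathway list the 3 most abundant in CD8 T cells, those with the largest and smallest log2 fold change between muMt-/- and WT mice at a mean of at least 5, and those with an adjusted p under 0.05 within a cell type. For *Gzmb*, *Gzmc*, *Gzmk* and *Prf1* they include the 5 most alike by Spearman correlation, and of each marker list given the most abundant gene and those at 0. Fold changes of *Ifng* and *Ccl5* with GABA were added after their values were seen. Transcripts were read from GENCODE, loci and promoters from RefSeq (GRCm38.p6), with Python 3.11.15. Windows before starts were aligned with free end gaps. *Cd244a* is listed as *Cd244* in the file. Alternatives were DESeq2 1.42.0 (size factors, Wald test), total molecules, filterByExpr, no filter, a robust fit, a fit of 12 libraries per comparison, a block for replicate numbers and each library left out. Leaving out the 2 CD8 T cell libraries with most macrophage marker RNA, T cell markers as the scale, and ratios between cell types without each library were chosen after seeing the data.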

Additional observations from a re-analysis of the deposited data

Results flagged for a closer look

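In 27 of the 60 combinations of a member and a group, those in which a library held more than 3 molecules, the highest and the lowest of the 6 libraries were compared with the nearest other one. In 7 of them 1 library stood apart from the rest, by a gap of more than 0.625 of the whole range. That limit is passed in about 1 in 20 groups of 6 normal values, but low counts beside 0 pass it more often, so that the 7 cannot be set against this rate. *Gzma* stood at 34.0 normalized molecules in WT CD8 T cell library 4, where the next library had 16.8. *Gzma* stood at 4.99 in GABA-treated macrophage library 6 (next 1.83, 6 molecules), and *Gzmb* at 6.97 in muMt-/- macrophage library 4 (next 0.92, 5 molecules). *Gzmd* stood at 8.26 in WT CD8 T cell library 6 (11 molecules, all others at 0), and *Gzme* at 9.01 in the same library (next 2.06). *Gzme* stood at 3.90 in GABA-treated CD8 T cell library 5, with 0 in the other 5. *Gzmf* stood at 16.4 in muMt-/- CD8 T cell library 5 (next 4.16). The cause of these gaps was not tested.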

How the results depend on the processing

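The count of members called stayed at 0 under every alternative run for the 3 comparisons in CD8 T cells and the 3 in macrophages, except that with no filter 1 (*Gzmd*) passed between GABA-treated and WT CD8 T cells. The share of all genes passing with no filter is not given, so that this call is no result about the members. For the interaction of GABA with cell type, 1 (*Nkg7*) passed by DESeq2 with unadjusted p. Of 1216 log2 fold changes under alternatives 1150 kept direction and side of the threshold, 53 changed sign, 12 gained a call and 1 lost it, where 7 of the 12 gains are DESeq2's unadjusted p under 0.05 and the other 5 an adjusted p. The 7 include *Il2rb*, *Lamp2* and *Serpina3g* between muMt-/- and WT CD8 T cells. The causes were not tested.

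Between GABA-treated and WT CD8 T cells *Nkg7* (0.02) became −0.18 with DESeq2's size factors, −0.17 with total molecules, −0.18 by DESeq2 with adjusted and unadjusted p, −0.23 with filterByExpr, −0.17 with the replicate block, −0.0723 with the 12 libraries and −0.0782 with T cell markers as the scale. The same scale gave *Nkg7* −0.0284 with GABA (0.11 as reported) and *Rab27a* 0.0322 between muMt-/- and WT mice (−0.05). A scaling shifts all genes alike, so that these are not changes against other genes, though they are among the sign changes counted above. Relative to the median of all genes, as reported and with T cell markers, *Rab27a* had −0.21 and −0.27. On the same terms *Nkg7* had 0.08 and 0.004 with GABA, and −0.19 and −0.36 between GABA-treated and WT mice. Between muMt-/- and WT mice *Gzmc* (−0.08) became 0.0296 by DESeq2 with adjusted and unadjusted p, and without the 2 libraries with most macrophage marker RNA *Gzmc* became 0.0657, *Nkg7* 0.0495 (−0.09) and *Ifng* 0.0613 (−0.05).

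With each library left out in turn, values between muMt-/- and WT mice ran from −0.36 to 0.87 for *Gzma*, −0.90 to 0.65 for *Gzmc*, −1.11 to 1.16 for *Gzme*, −0.24 to 0.11 for *Nkg7*, −0.20 to 0.14 for *Rab27a* and −0.29 to 0.10 for *Ifng*. With GABA they ran from −0.61 to 0.67 for *Gzmc*, −0.23 to 1.74 for *Gzmf* and −0.15 to 0.31 for *Nkg7*, and between GABA-treated and WT mice from −0.76 to 0.48 for *Gzmc*, −0.56 to 0.54 for *Gzmf* and −0.24 to 0.22 for *Nkg7*.

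With Pearson's instead of Spearman's correlation, 3 of the 5 most alike genes were shared for *Gzmb*, 3 for *Gzmc*, 3 for *Prf1* and 1 for *Gzmk*. Within a cell type, libraries with the same replicate number were not alike: their median correlation was −0.02 in CD8 T cells (6 of 18 above 0.1) and 0.00 in macrophages (1 of 18), so that the block result is of little use. Whether CD8 T cell and macrophage libraries of a number come from 1 mouse was not tested, and the fit of 36 libraries has no term for the mouse. Shallow CD8 T cell libraries limit detection of the members with few molecules.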
